A study of Homo sapiens with 6 samples.

Results

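The genes described here are 8 transcriptional regulators of the neuroblastoma core circuit, PHOX2A, HAND2, GATA2, GATA3, ISL1, TBX2, TFAP2B and LMO1. Their peaks were all those whose summit lay in the annotated gene body or up to 4000 bp past its 3′ end, which gave 64 of the 200023 peaks in the list. Of these 64, 55 had a −log10 q of at least 5, the cutoff used in the study, and the counts that follow rest on these 55 unless stated otherwise. The cells were IMR-32, an established human neuroblastoma line with amplified MYCN. Poly(A) 3′-seq, whose reads begin where a transcript joins its poly(A) tail, was run on 6 libraries. These were 2 biological replicates of cells given DMSO, 2 of cells given 400 nM THZ531 for 2 h and 2 of cells given 400 nM THZ531 for 6 h, where THZ531 irreversibly blocks CDK12 and CDK13, kinases of transcribing RNA polymerase II. The deposited peaks were called on merged reads of all samples, which are taken here to be these 6 libraries. The study does not say which samples were merged and also describes such libraries of other neuroblastoma cells, and reads of those cells, if merged, cannot be told apart. The list gives no value for a library, the depth of each library is unknown, and neither DMSO and THZ531 nor replicates could be compared. Every number below describes the pool and carries no replicate error, and no test between treatments was possible.

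In noradrenergic neuroblastoma a small group of lineage transcription factors bind large enhancers of their own genes and of each other, and so keep one another highly expressed. PHOX2A is a homeodomain factor of noradrenergic neurons, ISL1 a LIM-homeodomain factor of sympathetic and sensory neurons, and HAND2 a basic helix-loop-helix factor needed for sympathetic neurons. GATA2 and GATA3 are zinc finger factors of the same lineage, TBX2 is a T-box factor, TFAP2B an AP-2 factor, and LMO1 a LIM-only protein that binds no DNA itself and acts through partner proteins. An mRNA ends where the cleavage machinery cuts the transcript, usually a short way after a hexamer such as AATAAA, and a gene can use several such sites, in its last exon or in an intron.

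The annotated ends of these genes show how far each carries the usual signal. The sequences below are of the gene strand in GRCh38, 30 bases from the hexamer found 10 to 40 bases before the end of the canonical transcript (AATAAA where there was a choice), with that hexamer in capitals.
PHOX2A, chr11:72239072-72239101, minus strand: AATAAAacttaatttattgaagacatcacg
ISL1, chr5:51394721-51394750, plus strand: AATAAAtaaacacagtgatccagggtccct
GATA2, chr3:128479417-128479446, minus strand: AATAAAatactttttgtgaatgcccctggc
GATA3, chr10:8075173-8075202, plus strand: AATAAAgtgaaaatattttaaaactacaaa
TBX2, chr17:61409446-61409475, plus strand: AATAAAacgctagaaagcgaagtgaacggc
TFAP2B, chr6:50847590-50847619, plus strand: AATAAAaagattgttgtgttttcatcttca
LMO1, chr11:8224304-8224333, minus strand: ATTAAActtatgaatgtttccgggaggtta
In 6 of the 8 genes the hexamer was AATAAA and in LMO1 it was ATTAAA. HAND2 had none of the 12 hexamers there. Its canonical end lies instead at the start of an A-rich run, with 85% A in the next 20 bases, shown here with 10 bases up to the end in lower case and the 20 bases past it in capitals.
HAND2, chr4:173526071-173526100, minus strand: catccaagaaAAAAAAAAGGAAAAAGAAAA
A peak lay within 25 bp of the canonical end in 7 of the 8 genes, against 52.1% of all 20033 protein-coding genes. The exception was TBX2. The 52.1% also counts genes without a peak at any annotated transcript end, whereas all 8 genes had one.

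All 8 genes had a peak at an annotated transcript end, defined as 200 bp upstream to 600 bp downstream of the end of any transcript, while 64.1% of all protein-coding genes had one. The height of a peak is given as reads at the summit, the number of reads, extended to 100 bp, that cover it. MACS2, the peak caller, by default keeps 1 read per start position and strand, so the height counts distinct start positions and is not an expression level. The median over the 12832 genes with such a peak was 25 reads at the tallest transcript-end summit, with quartiles of 17 and 36.

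By these heights the 8 genes ranged from near the median of the 12832 genes to the tallest. PHOX2A had 123 reads, TBX2 75, HAND2 71 and GATA3 66, all at or above percentile 97.9 of those genes. ISL1 had 55 reads and GATA2 42, at percentiles 94.5 and 84.3. LMO1 with 28 reads and TFAP2B with 23 were near the median, at percentiles 58.6 and 43.9. No replicate spread exists by which neighbours in this order could be told apart.

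Reads around the summit set the genes apart more widely. The list allows the reads of both strands in the 10 kb around each summit to be recovered, and the median of all genes was 140. HAND2 had 2426 such reads, the third highest of the 12832 genes, PHOX2A had 1620 (rank 16) and TBX2 had 1288 (rank 40). GATA3 had 685, ISL1 396 and GATA2 389, whereas TFAP2B had 136 and LMO1 61. Reads of neighbouring genes are part of these values. At HAND2 the 10 kb take in part of HAND2-AS1, an antisense gene that overlaps HAND2 by 2960 bp.

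**Figure D1:**
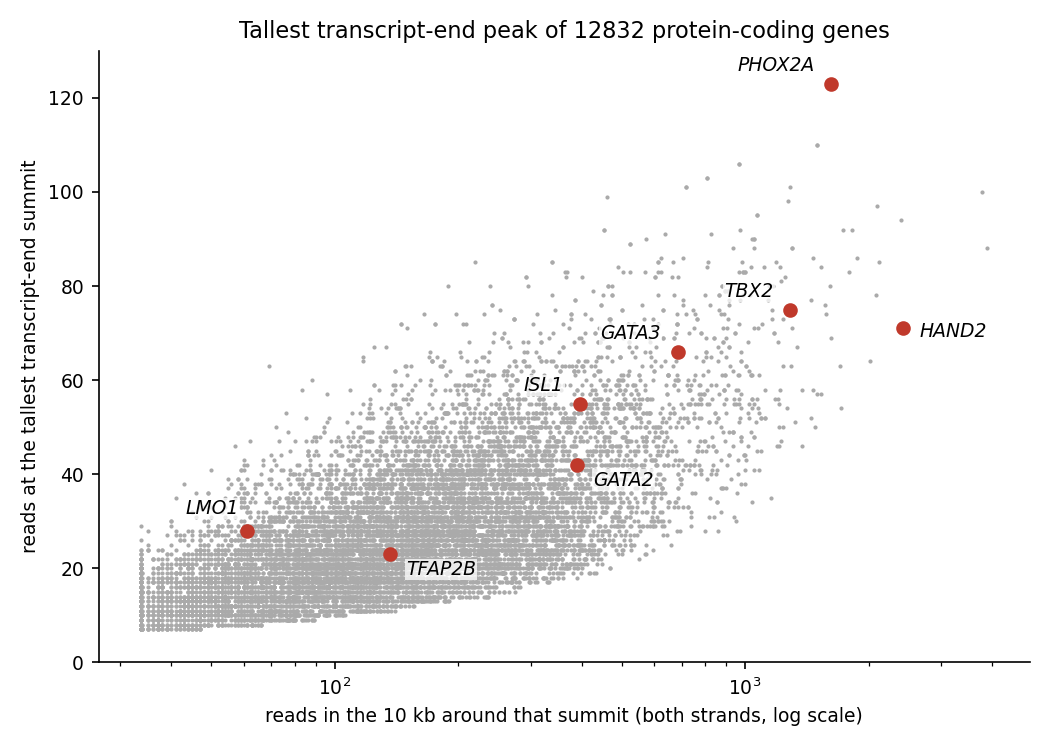
Reads at the tallest transcript-end summit (vertical axis) against reads of both strands in the 10 kb around it (horizontal axis, log scale) for 12832 protein-coding genes in grey, with the 8 regulators in red. PHOX2A is at the top with 123 reads, HAND2 far right with 2426 reads in 10 kb, and TFAP2B and LMO1 lie among the bulk of genes.

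The 55 peaks comprised 15 at transcript ends (27.3%, exact Clopper-Pearson 95% interval 16.1 to 41.0), 4 in other exonic sequence (7.27%, 2.02 to 17.6), 25 in introns (45.5%, 32.0 to 59.4) and 11 past the gene end (20%, 10.4 to 33.0). Over all protein-coding genes, 20.2% of peaks were at transcript ends, 10.3% in other exonic sequence, 64.0% in introns and 5.51% past the end. All peaks, here and below, means the 134005 pairs of a peak and a protein-coding gene with a −log10 q of at least 5. Leaving out peaks under a gene of the other strand, 9.30% of the peaks of the 8 genes and 3.08% of those of all genes lay past the end. These intervals cover counting error only, and peaks of 1 gene are not independent. The peaks past the end came from 4 genes, 4 each from PHOX2A and TBX2, 2 from HAND2 and 1 from GATA3. By the shares of their peaks in each class, ISL1 and LMO1 were the most alike, with differences that summed to 7.14 percentage points over the 4 classes, and GATA3 was 20 points from each. These 3 genes had most of their peaks in introns. PHOX2A and TBX2 were the next pair, 25.4 points apart, each with more peaks past the end than in any other class.

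**Figure D2:**
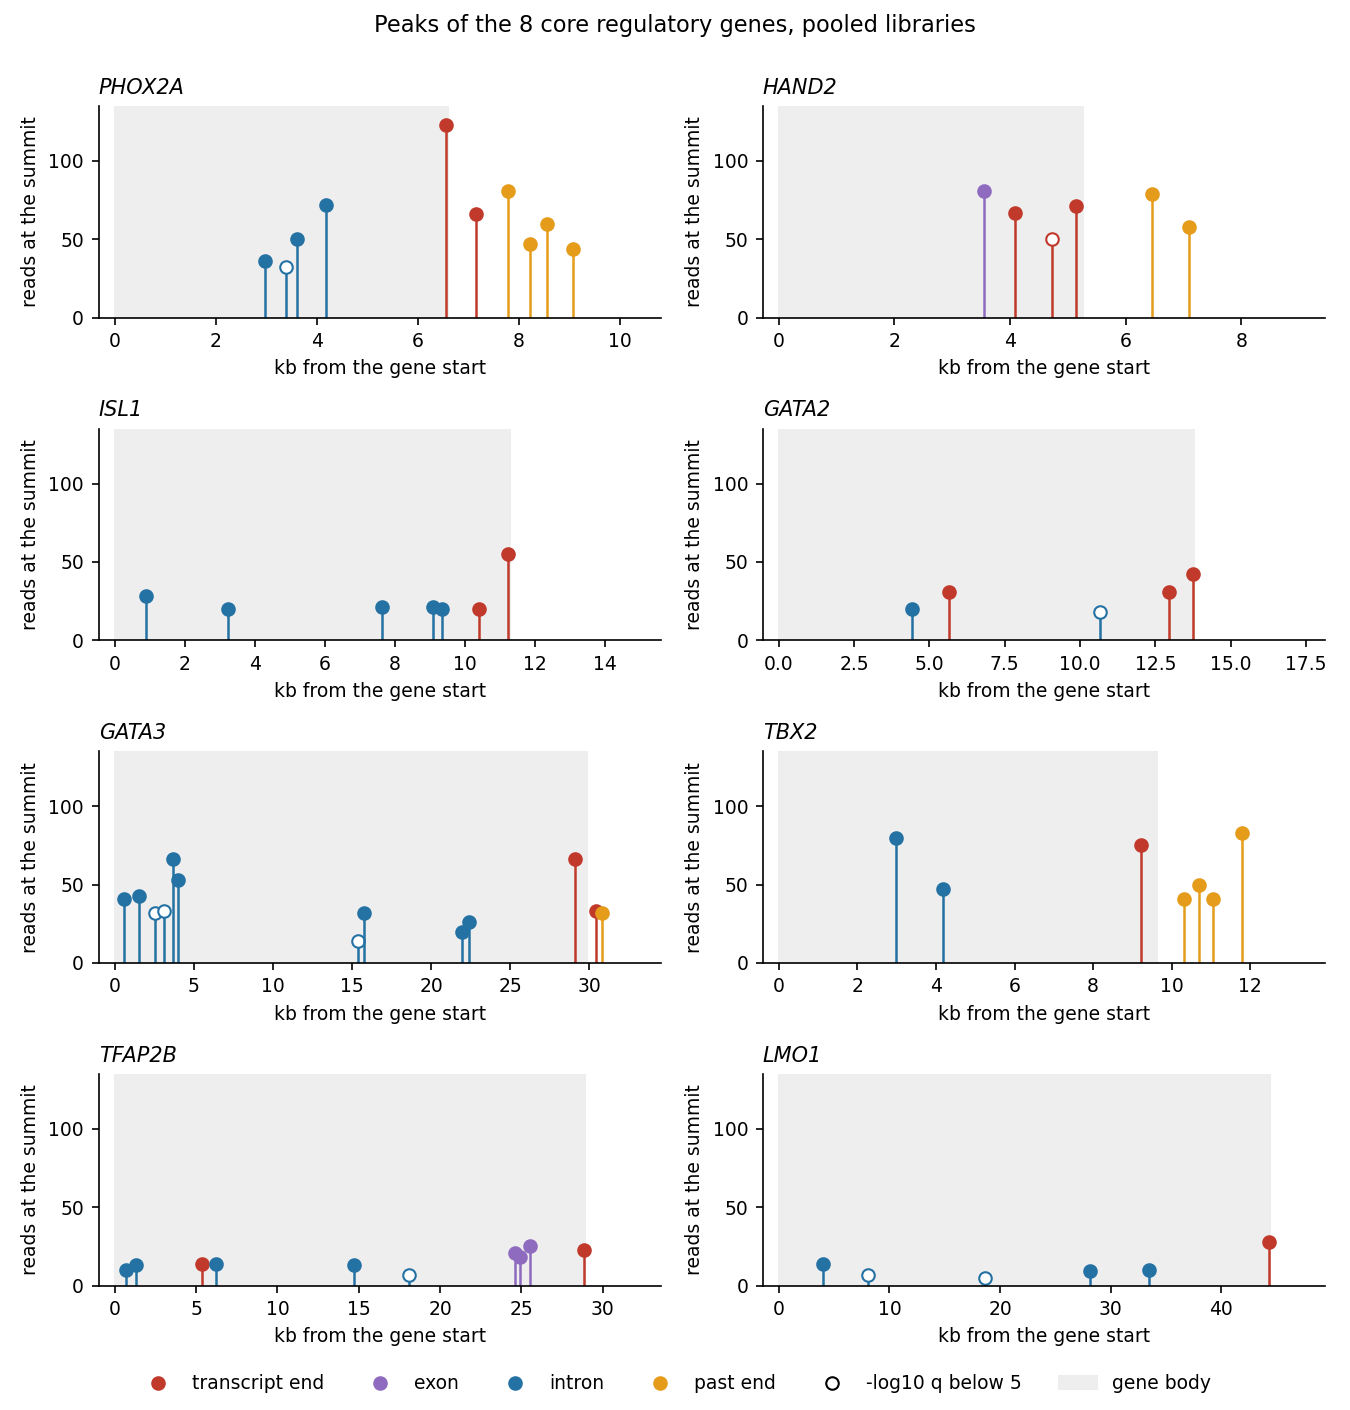
Each stem is a peak of 1 gene, placed by the distance of its summit from the gene start (horizontal axis, kb, in the direction of transcription) with its height in reads at the summit (vertical axis), colour giving the class, grey the gene body and open circles a −log10 q below 5. PHOX2A, HAND2 and TBX2 carry tall peaks within and past a short gene, GATA3 a group of intronic peaks at its start, and TFAP2B and LMO1 low peaks along long genes.

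PHOX2A, chr11:72239077-72245664 on the minus strand, held the tallest transcript-end peak of any protein-coding gene, chr11:72238888-72239199 with 123 reads and a −log10 q of 58.7. It is also the tallest such peak of INPPL1, a phosphoinositide phosphatase gene that runs towards PHOX2A on the plus strand and overlaps its end by 71 bp. With 1 read per start position and strand, reads of 1 strand cannot exceed 100 at a base, so under that default both strands contributed here, and how many reads belong to PHOX2A cannot be told apart. Of the 6 transcript-end peaks over 100 reads that were the tallest of their gene, 5 were shared by a pair of genes on opposite strands. The second transcript-end peak of PHOX2A had 66 reads and was 548 bp wide, and 4 further peaks 1185 to 2477 bp past its end had 81, 47, 60 and 44 reads. All 6 of these summits lie inside INPPL1.

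Within the gene, PHOX2A had 3 peaks in the first intron, after 72 of 284 codons. The tallest, 2414 bp before the gene end, had 72 reads and a −log10 q of 23.2. The others had 50 and 36 reads, and another with 32 reads fell below the cutoff. No gene on the other strand is annotated at these summits, although they lie 2344 to 3544 bp past the end of INPPL1. Among the 500 detected genes nearest in length (5.65 to 7.68 kb), whose median was 0 intronic peaks, PHOX2A stood at percentile 98.8. Among the 38 of these with local reads within 2-fold of its own it stood at percentile 96.1.

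HAND2, chr4:173524969-173530229 on the minus strand, had 5 peaks of 58 to 81 reads and none in an intron. Its tallest transcript-end peak, with 71 reads, lies 112 bp before the end of the longer transcript HAND2-202, an annotated nonsense-mediated decay form. A peak of 67 reads sits at the canonical end described above, in front of the A-rich run, with at most 20 A in any 25 bases and so under the 22 that defined a genomic A stretch. The tallest peak of the gene was neither of these. It had 81 reads, lay in the 3′ UTR 588 bp before the canonical end, and held a hexamer only outside the 100 bases before its 3′ edge. Past the gene end, with no other gene annotated within 4000 bp, were a peak of 79 reads that was 1035 bp wide and one of 58 reads, 1197 and 1836 bp past it. Local reads of 2203 to 2572 per 10 kb surrounded all of them, in which reads of HAND2-AS1 cannot be told apart. As significance is set against that local level, these tall peaks had a fold over background of 2.21 to 3.56 only and a −log10 q of 5.43 to 18.5, whereas 28 reads at the end of LMO1 had a fold of 18.01 and a −log10 q of 33.2.

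TBX2, chr17:61399843-61409466 on the plus strand, had no peak within 25 bp of its annotated end despite AATAAA there. Its transcript-end peak, chr17:61408972-61409230 with 75 reads and a −log10 q of 28.4, summits 398 bp before that end and spans the end of TBX2-203, a retained-intron transcript. The 30 bases from the hexamer of that end are shown because they mark the annotated end under this peak.
TBX2-203, chr17:61409100-61409129, plus strand: AATAAAtggtaatttgtgtaaataagcttt
Of the 7 peaks of TBX2, 2 were taller than this one. An intronic peak in intron 2, after 221 of 712 codons, had 80 reads and a fold over background of 8.44. A peak 2174 bp past the gene end had 83 reads and a −log10 q of 29.2. The remaining 4 had 41 to 50 reads. The antisense transcript TBX2-AS1 covers 6 of the 7 summits, and the seventh, of 83 reads, lies in the gap between the start of TBX2-AS1, 85 bp away, and the start of LINC02875, 111 bp away. Without strand, TBX2 and TBX2-AS1 reads cannot be told apart. Among detected genes with an intronic peak, 34.7% had one taller than their tallest transcript-end peak, as did 1 of the 7 regulators with an intronic peak, namely TBX2. In GATA3 both were 66 reads.

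GATA3, chr10:8045378-8075198 on the plus strand, had 7 intronic peaks, at percentile 97.1 of genes of like length (median 3) and at percentile 86.1 of the 54 of these with a like local level. Their placement was uneven. A group of 4 lay 5304 to 8740 bp before the start of the canonical transcript, inside the gene body only because GATA3-205 starts further upstream, and had 41, 43, 66 and 53 reads. They lie 1066 to 4502 bp past the end of GATA3-AS1, an antisense RNA on the minus strand, and which strand they come from cannot be told apart. The other 3, in introns 3 and 4 after 259 and 308 of 444 codons, had 32, 20 and 26 reads. At the gene end, the peak chr10:8074218-8075216 was 999 bp wide with 66 reads and a −log10 q of 37.1, and it covered the ends of both GATA3-201 and the canonical GATA3-202. A second peak of 33 reads 580 bp past the end and another of 32 reads 973 bp past it followed, in sequence with no other annotated gene in the 4000 bp.

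GATA2, chr3:128479427-128493201 on the minus strand, had 4 peaks, the fewest together with LMO1. The peak at the canonical end had 42 reads, and one 808 bp upstream, near the end of GATA2-202 and GATA2-204, had 31 reads. Both had AATAAA before the edge. The other transcript-end peak, also of 31 reads, lies in intron 1 before any codon, 168 bp past the end of the short transcript GATA2-211. The intronic peak, also in intron 1, had 20 reads. GATA2 was at percentile 49.3 of genes of like length for intronic peaks.

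ISL1, chr5:51383448-51394730 on the plus strand, ended in a peak 572 bp wide with 55 reads and a −log10 q of 38.6. Upstream of it were a peak of 20 reads in the last exon and 5 intronic peaks of 20 to 28 reads, in introns 1, 2, 4 and 5, after 9, 72, 255 and 311 of 349 codons. With 5 intronic peaks ISL1 was at percentile 99.5 of genes of like length (median 1) and at percentile 99.1 of the 231 with a like local level. The 20 bases past the 3′ edge of these 5 peaks held 50 to 85% A.

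TFAP2B, chr6:50818723-50847619 on the plus strand, had its tallest peak inside the last exon and not at the transcript end. The peak chr6:50844188-50844313, 3382 bp before the gene end in the 3′ UTR, had 25 reads and a −log10 q of 20.1, and the peak at the end had 23 reads and a −log10 q of 17.7. With 2 further peaks of 21 and 18 reads, the last exon held 4 peaks. A second transcript-end peak, of 14 reads, lies in intron 2 of the canonical transcript, 213 bp past the end of TFAP2B-203. AATAAA lay 27 bases before its edge. The 4 intronic peaks had 10 to 14 reads, and all 9 peaks of the gene had a hexamer before the edge.

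LMO1, chr11:8224309-8268716 on the minus strand and at 44.4 kb the longest of the 8, had a peak of 28 reads at its end and 3 intronic peaks of 9 to 14 reads. It was at percentile 30.2 of genes of like length, whose median was 5 intronic peaks. The intronic peaks lay in the long first intron of the canonical transcript, after 8 of 156 codons, or 805 bp before its start.

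In all, 7 of the 8 genes had an intronic peak, against 58.9% of all protein-coding genes. Of the 12832 genes with a transcript-end peak, 9992 had an intronic one. A peak 600 to 4000 bp past the end was found in 4 of the 8 genes, against 26.1% of all genes. Of the 6 with no other gene in those 4000 bp it was found in 2, HAND2 and GATA3, against 13.2% of such genes. The 58.9%, 26.1% and 13.2% also count genes without a transcript-end peak, whereas all 8 genes had one. Peaks 500 bp or wider were 4 of the 55 (PHOX2A, HAND2, ISL1 and GATA3), against 1.14% of all peaks.

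**Figure D3:**
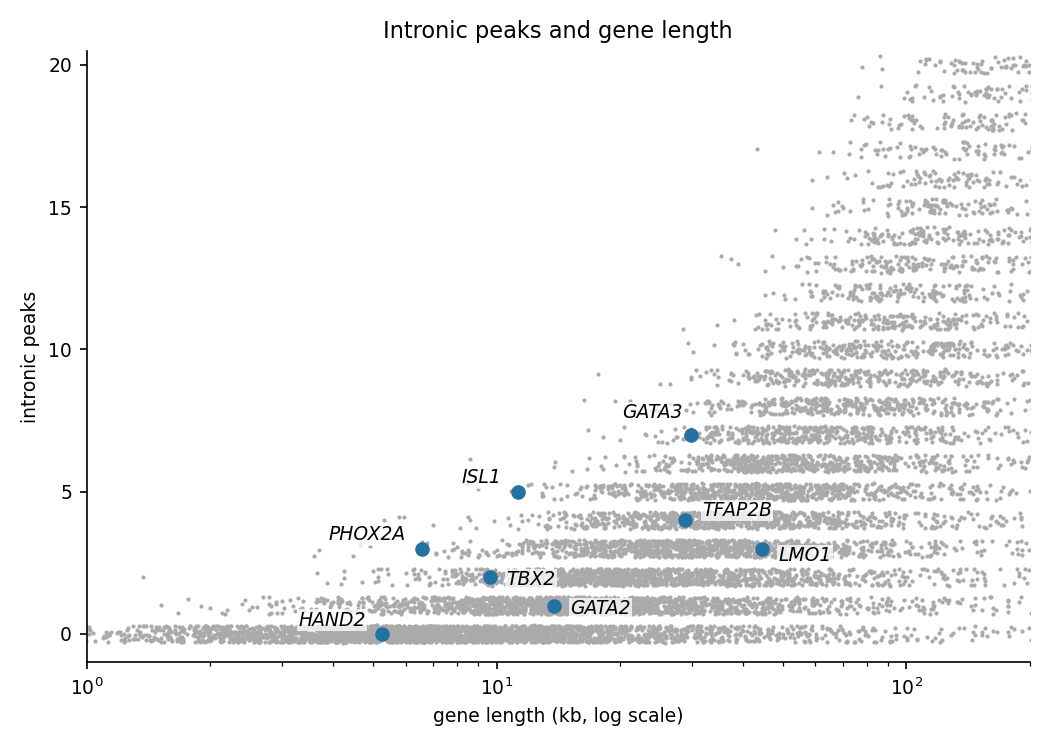
Number of intronic peaks (vertical axis, grey points spread by up to 0.3 for legibility and shown up to 20 peaks) against gene length (horizontal axis, kb, log scale, shown from 1 to 200 kb) for protein-coding genes with a transcript-end peak, with the 8 regulators in blue. ISL1 with 5 peaks, PHOX2A with 3 and GATA3 with 7 lie at percentiles 99.5, 98.8 and 97.1 of genes of like length. Among those also of like local level they lie at percentiles 99.1, 96.1 and 86.1. LMO1 with 3 lies below the median of 5.

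The sequence at the tallest intronic peak of each gene is shown to let the A content past the edge be read directly, with 10 bases before the 3′ edge in lower case and the 20 bases after it in capitals. The 3′ edge is the side of a peak where the gene's transcription leaves it, and A-rich sequence there can be primed by an oligo(dT) primer as a poly(A) tail is.
PHOX2A, chr11:72241362-72241391, minus strand: aggcgtgtgaTTCCCCCGGAGCTGGACACA
ISL1, chr5:51384400-51384429, plus strand: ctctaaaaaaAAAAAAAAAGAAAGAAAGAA
GATA2, chr3:128488690-128488719, minus strand: tcggggacccCCCCCGGAGGAAAAAAAATG
GATA3, chr10:8049118-8049147, plus strand: aagaaaaaagAACTAAAGGAAGGAAAAGAA
TBX2, chr17:61402906-61402935, plus strand: aaaatggggaAGAGGAAGAACCGATAGAGA
TFAP2B, chr6:50824978-50825007, plus strand: aaaggaaaatAAAATGGGAAAGAGAAGAGG
LMO1, chr11:8264606-8264635, minus strand: agaaagaaagAAAAAGGAATGAAAAGAAAA
The A share of the capitals ran from 20% in PHOX2A through 45% in GATA2, 50% in TBX2, 55% in TFAP2B, 65% in GATA3 and 75% in LMO1 to 85% in ISL1. The median was 50% over the 25 intronic peaks, against 60% over intronic peaks of all genes, and 20% when the same 25 peaks were read on the other strand. At transcript ends it was 25% both in the 8 genes and in all genes. Only 1 of the 55 peaks, an intronic peak of GATA3 with 26 reads, had a genomic A stretch, meaning 22 or more A among 25 bases, (1.82%, exact interval 0.0460 to 9.72), against 4.01% of all peaks. At least 18 A in 25 were found in 5 (9.09%), against 19.6% of all peaks.

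AATAAA before the edge was found in 3 of the 25 intronic peaks, 2 of TFAP2B and 1 of LMO1. The pair in which it lies closest to the edge, 26 and 25 bases, was picked after the sequences were seen, and is shown from the hexamer in capitals.
TFAP2B, intron 1, 10 reads, chr6:50819412-50819441, plus strand: AATAAAatttctgaaattgataacaaatgg
LMO1, intron 1, 9 reads, chr11:8240495-8240524, minus strand: AATAAAtttcaattgtttatatgccaccca
The A share past the edge was 35% and 15% at these sites, below the median of intronic peaks. At all 55 peaks, any of the 12 hexamers was present in the 100 bases before the edge in 29 (52.7%, exact interval 38.8 to 66.3), against 62.5% of all peaks, and AATAAA in 10 (18.2%), against 30.5%. On the other strand 26 of the 55 had a hexamer, against 44.1% of all peaks. At transcript ends 10 of 15 peaks had one (66.7%, 38.4 to 88.2), against 79.2%, and in introns 15 of 25 (60%, 38.7 to 78.9), against 57.0%. Where the whole peak was searched as well, 35 of the 55 peaks (63.6%) and 13 of the 15 at transcript ends had a hexamer, against 69.0% of all peaks and 86.0% of all transcript-end peaks. The 3 transcript-end peaks that gained one by that wider search were the tallest of PHOX2A and ISL1, which reach 189 and 174 bp past the annotated end, and that of TBX2, which stops 236 bp before it.

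Hexamers were unevenly spread over the genes. PHOX2A, HAND2 and TBX2 together had one before the edge at 4 of 21 peaks, and the other 5 genes at 25 of 34, a grouping made after the values were seen. The 100 bases before the edge held a median of 58% G+C in the first 3 genes and 35.5% in the other 5. Gene by gene the split was not clean, as HAND2 had a median of 49% and GATA2, among the other 5, 53.5%. Over all protein-coding genes the share of peaks with a hexamer was 93.6% where G+C was below 30% and 10.3% where it was 60% or more. At 60% or more G+C, 1 of 10 peaks of the 8 genes had a hexamer, and at 30 to 40% G+C 13 of 16 did, against 80.6% of all peaks. The first 3 genes also had 10 of the 11 peaks past the end and all 12 of the peaks under a gene of the other strand. Of these 12, PHOX2A and TBX2 had 6 each and HAND2 had 0. Local levels were 811 to 2572 reads per 10 kb in the first 3 genes, against 36 to 1271 in the other 5. Over all genes, peaks in places with at least 1000 reads per 10 kb had a hexamer in 46.5%, and the 22 such peaks of the 8 genes in 3. The part of base composition, antisense genes and local level in this split was not tested.

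**Figure D4:**
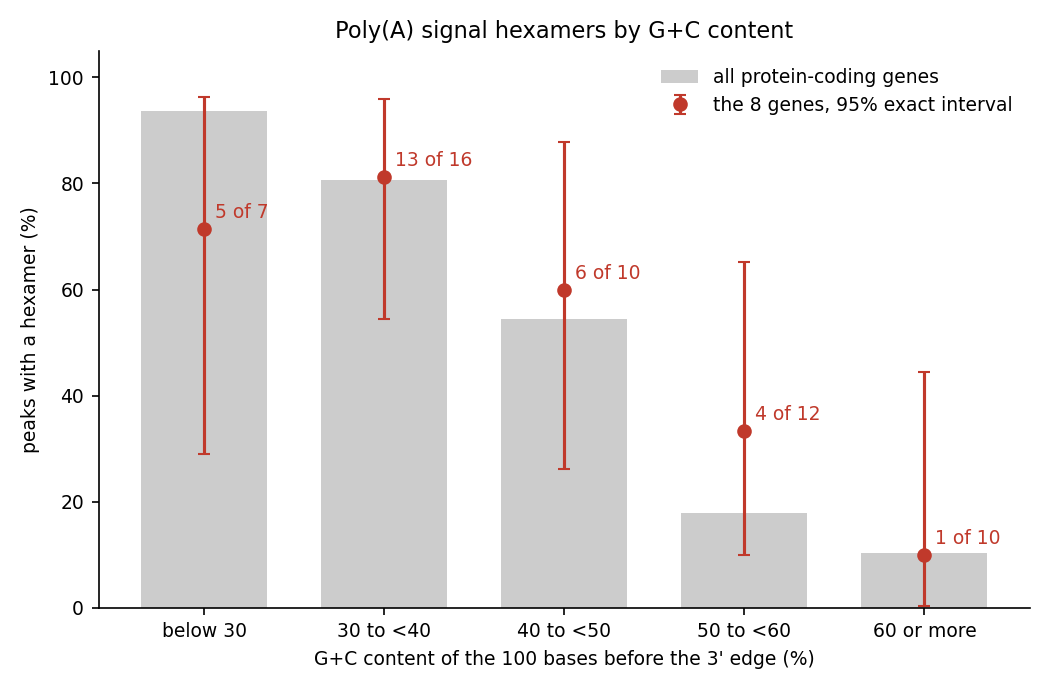
Share of peaks with any of the 12 hexamers in the 100 bases before the 3′ edge (vertical axis, %) by the G+C content of those bases (horizontal axis, %), with bars for all protein-coding genes and red points with exact 95% intervals for the 8 regulators, labelled with their counts. The points fall from 13 of 16 peaks at 30 to 40% G+C to 1 of 10 at 60% or more, and the interval holds the bar in each of the 5 ranges.

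Other genes of the circuit were also read from the list. Of 10 such genes, 9 had a transcript-end peak, with 18 to 100 reads and a median of 28, against 23 to 123 reads and a median of 60.5 for the 8 regulators. MYCN, the amplified oncogene of these cells, had 100 reads. SOX11 had 7 peaks but none at a transcript end. Of 16 paralogs of the 8 regulators, 7 had a transcript-end peak, with a median of 28 reads. HAND1 had 28, ISL2 20, TBX3 42, TFAP2A 31 and LMO4 58 reads, each below its relative among the 8 other than TFAP2A and LMO4, which were above TFAP2B and LMO1. TBX5 had 9 and LMO3 18 reads, also below TBX2 and LMO1, and LMO3 is counted among the circuit genes as well. GATA1, GATA5, GATA6, TFAP2C, TFAP2D and LMO2 had no peak with a −log10 q of at least 5. Markers of sympathetic cells had a transcript-end peak in 8 of 9 genes, with 19 to 72 reads and a median of 33. The tallest was STMN2, while TH, with 23 reads, and DBH, with 19, encode enzymes of noradrenaline synthesis. Markers of the mesenchymal neuroblastoma state had one in 5 of 10, with 7 to 38 reads and a median of 34, the tallest being FOSL1. Those of other cell types had one in 4 of 11, with 7 to 30 reads and a median of 17. These 4 were CD68 with 30 reads, SOX10 with 19, COL1A1 with 15 and EPCAM with 7. CD68 was above TH, DBH, DDC and CHGB and below CHGA, STMN2, GAP43 and ELAVL4, and had 948 reads in the 10 kb around it. PTPRC, ALB, PECAM1 and VWF were among those with no transcript-end peak. These shares stand beside the 64.1% of all protein-coding genes.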

How the data were processed

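Poly(A) 3′-seq libraries of IMR-32 cells (QuantSeq 3′ mRNA, REV) were analysed from the 1 deposited peak list. The authors, as their methods state, trimmed reads with BBMap, mapped them to GRCh38 with STAR 2.5.1b, allowing up to 20 placements, merged all samples and ran MACS2 2.1.1 without a control, extending reads to 100 bp. Reads with several placements can put signal on near-identical copies. The list is not the later, filtered set of the study. The deposited fold enrichment is the ratio of pileup plus 1 to local background plus 1. The authors' −log10 p-value and −log10 q-value are those of MACS2 at the summit, and the deposited score, derived from the latter, was not used.

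Here, reads at the summit and in the 10 kb around it were solved from the fold and the −log10 p-value. The solution was tested on simulated peaks, and the largest misfit of the −log10 p-value in the list was 0.000172. Where the local level was under the genome-wide floor of 0.337 reads, met by 22.2% of peaks, the 10 kb value is an upper bound. Gencode release 44 (the study used release 27) gave the genes, of which 20033 were protein-coding, and each summit was classed as transcript end, exon, intron or past end, in that order. A peak under overlapping genes was counted for each. The 12 hexamers of the study (AATAAA with ATTAAA, also CATAAA or GATAAA or TATAAA, further ACTAAA or AGTAAA or AAGAAA, and lastly AATACA or AATAGA or AATATA or AATGAA, overlaps allowed) were searched on the gene strand, and separately on the other strand, in the 100 bases before the 3′ edge, and 22 or more A in 25 within 50 bases after it. Sequences are from the GRCh38 genome. Genes of like length were the 500 nearest in length among those with a transcript-end peak and an intron. Likeness between genes was the share of peaks in each class. Intervals are exact 95% Clopper-Pearson intervals (scipy 1.17.1, Python 3.11.15).

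The named peaks of each gene were its tallest at a transcript end, in an intron and past the end, and any other taller than the first of these, with further peaks given by their ranges and counts or where stated. The 8 genes and the lists of circuit genes, paralogs and markers were chosen with earlier results of these data known. Another gene of the circuit list is not reported here. Alternatives were other cutoffs, windows, class rules, hexamers and A stretches. No treatment, replicate or library was compared, because the list holds pooled values only.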

Additional observations from a re-analysis of the deposited data

How the results depend on the processing

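The largest shifts came with the cutoff. At a −log10 q of at least 20, 12 of the 55 peaks were left, 50% of them at transcript ends and 25% in introns, 3 genes (PHOX2A, GATA3 and TBX2) kept an intronic peak, 2 had a peak 600 to 4000 bp past the end, HAND2 had no peak, the other genes had 1 to 3 each, and 0% had a genomic A stretch. With the window around transcript ends narrowed to 100 bp on each side, and likewise with canonical transcripts only, the transcript-end share was 14.5%. GATA3 lost its transcript-end peaks under the narrower window and TBX2 under canonical transcripts. Under both, HAND2 gained a peak classed as intronic, so that all 8 genes had one. Without peaks under a gene of the other strand, 9.30% lay past the gene end, and PHOX2A and TBX2 lost every transcript-end peak, with 3 and 1 peaks left of 9 and 7. The hexamer share was 18.2% for AATAAA only, 21.8% with ATTAAA as well and 23.6% in the 100 bases that end at the summit. Beside the counts of single genes, the other 48 values under alternatives stayed within 1.5 times the count or within the 95% interval of the share given in the report. They include the search for a hexamer anywhere in the peak, an alternative chosen after seeing the data, with 63.6%. No paired analysis was possible because each peak carries 1 value for the merged libraries, and for the same reason leaving out a replicate was not possible. Without strand, reads of overlapping genes cannot be separated. Heights count distinct start positions, at most 200 at a base, so they compress differences between strongly covered genes, and a peak in a dense locus needs more reads to pass the cutoff.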
